A study of Mus musculus with 16 samples.

Results

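Ifitm1, Ifitm2 and Ifitm3 are the interferon-induced transmembrane genes examined here in tumour-associated macrophages from mouse gliomas. They are 3 of the 12394 genes that could be named on the arrays, and each had 1 probe set annotated to its symbol alone, so 3 probe sets were found. The family was chosen by its difference in log2 level between the agents in these same 16 arrays. The differences between agents are therefore given as a description, without a test.

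Macrophages were sorted as CD11b+ Gr1- cells from gliomas of 16 mice and each mouse was profiled on 1 Affymetrix expression array. All mice carried Nestin-Tv-a, in which the Nestin promoter drives the receptor for RCAS viruses, and lacked Ink4a/Arf (Ink4a/Arf-/-), on a mixed background. Gliomas were started by intracranial injection of DF-1 cells, a chicken fibroblast line, producing RCAS-PDGF-B-HA, so the tumours were driven by PDGF-B. The sorted macrophages come from the same mice and so share their genotype in both groups. The Vehicle group (8 mice) was gavaged with 20% captisol and the BLZ945 group (8 mice) with BLZ945, a small molecule that blocks signalling by CSF-1R, daily for 7 days. The BLZ945 dose is labelled 200 mg without a body weight.

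The Vehicle group held 4 female and 4 male mice, and the BLZ945 group 5 female and 3 male. Age differed: 4 mice of each group were 11.29 weeks old, the other 4 BLZ945 mice were 13.14 weeks old, and the other 4 Vehicle mice were 11.43 or 12.29 weeks old. The initial tumour volume, labelled without a unit, ran from 11.9 to 27.3 in the 6 Vehicle mice that have one and from 41.3 to 132.3 in the 8 BLZ945 mice. These ranges do not overlap, and the BLZ945 values are numerically above the 40 mm3 that the protocol gives as the upper limit at enrolment. The macrophage genes Csf1r (13.6 ± 0.14 in Vehicle, SD, n = 8) and Ptprc (11.9 ± 0.11) were bright, Csf1r differed between the agents by 0.06 (limma adjusted p = 0.730), and 9 macrophage markers had a mean log2 value of 11.6 to 12.1 in the Vehicle mice and 11.4 to 11.9 in the BLZ945 mice. The neutrophil, T and NK cell, and endothelial lists stayed between 4.13 and 6.28 in mean log2 value in both groups. Other lists were higher in some mice. The pericyte and fibroblast list reached 8.53 in Vehicle and 7.87 in BLZ945. The monocyte list reached 8.72 and 7.25, and the glioma and oligodendrocyte precursor list 7.81 and 6.47. Single markers were also brighter, such as S100a9 at up to 9.50 in Vehicle and Gzma at up to 10.47 in BLZ945.

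Ifitm proteins are small membrane proteins of the cell surface and of endosomes that hinder the fusion of enveloped viruses with the cell. Ifitm1 resides mainly at the cell surface, whereas Ifitm2 and Ifitm3 are found mostly in endosomal and lysosomal membranes. Interferons raise their transcription through receptor-bound kinases and the transcription factors they activate: type I interferon acts through the interferon-stimulated response element, or ISRE, and interferon gamma through the gamma-activated site, or GAS.

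The sequences before the 3 transcription starts are shown because an ISRE next to the start is the element through which type I interferon acts, and the 3 genes differ in it. They were taken from the RefSeq promoter table, build GRCm38.p6, in which all 3 genes were found. Each of the first 3 sequences holds the 250 bases before the start, 5′ to 3′ on the strand of the gene. They lie at chr7:140967826-140968075 on the plus strand (Ifitm1), chr7:140955962-140956211 on the minus strand (Ifitm2) and chr7:141010745-141010994 on the minus strand (Ifitm3). The last holds the first 30 transcribed bases of Ifitm3, chr7:141010715-141010744 on the minus strand. Capitals mark matches to the ISRE letters searched, which were GAAA, any 2 bases and GAAA again.
Ifitm1: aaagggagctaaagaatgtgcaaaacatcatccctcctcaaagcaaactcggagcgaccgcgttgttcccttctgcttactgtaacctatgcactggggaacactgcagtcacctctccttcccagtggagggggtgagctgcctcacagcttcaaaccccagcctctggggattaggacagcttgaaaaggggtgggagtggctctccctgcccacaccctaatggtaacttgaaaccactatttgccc
Ifitm2: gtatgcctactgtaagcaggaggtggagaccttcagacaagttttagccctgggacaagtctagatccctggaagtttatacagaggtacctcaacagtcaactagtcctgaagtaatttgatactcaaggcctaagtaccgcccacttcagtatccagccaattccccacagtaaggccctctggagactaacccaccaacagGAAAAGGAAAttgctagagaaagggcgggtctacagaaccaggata
Ifitm3: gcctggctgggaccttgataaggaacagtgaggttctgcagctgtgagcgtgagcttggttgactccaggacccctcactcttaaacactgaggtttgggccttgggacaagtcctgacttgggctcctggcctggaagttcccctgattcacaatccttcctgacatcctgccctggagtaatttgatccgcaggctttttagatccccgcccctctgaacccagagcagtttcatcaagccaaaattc
Ifitm3 first bases: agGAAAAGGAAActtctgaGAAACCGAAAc
The Ifitm2 window held 1 ISRE match, GAAAAGGAAA, at bases -46 to -37 counted from the start. The Ifitm3 window held 2, GAAAAGGAAA at bases 3 to 12 and GAAACCGAAA at bases 20 to 29 after the start. A match to the GAS letters TTCNNNGAA lay at bases 14 to 22 of Ifitm3 and shared its last bases with the second ISRE match. The Ifitm1 window held neither motif, although RefSeq lists other Ifitm1 transcripts whose starts were not searched.

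Searched on both strands, the ISRE letters stood in 1131 of 32851 promoter windows of this length (3.44%) and the GAS letters in 2726 (8.3%). Counted by gene, 1079 of 27025 genes (3.99%) had an ISRE match, against 10 of the 20 type I interferon-induced genes of the list used below that have a promoter in the table (50%). The longest run of identical bases between the windows of Ifitm2 and Ifitm3 was 13 bases, caggaaaaggaaa, which contains an ISRE match of each. Ifitm1 shared no run over 8 bases with either. A match describes letters, not binding.

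All 3 genes had a lower mean in the BLZ945 mice, and the size of the difference was unequal. Values are log2 expression as the authors deposited it, so a difference of 1 is a factor of 2. Ifitm1 ran from 8.68 to 10.92 in the Vehicle mice with a median of 9.87, and from 5.86 to 9.80 in the BLZ945 mice with a median of 7.25. In 6 of 8 BLZ945 mice Ifitm1 was below every Vehicle mouse, and the groups overlapped through BLZ945 mice 1 and 2, at 9.80 and 9.20. The mean was 10.01 ± 0.75 in Vehicle and 7.64 ± 1.39 in BLZ945 (SD, n = 8 each), which differ by -2.37 (SE 0.49), or 5.18-fold. Among the 12394 genes this was the 24th largest difference towards a lower level.

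Ifitm2 ran from 7.50 to 9.67 with a median of 8.65 in the Vehicle mice and from 5.96 to 8.71 with a median of 7.46 in the BLZ945 mice. The groups overlapped, and 5 of 8 BLZ945 mice lay below every Vehicle mouse. The mean was 8.69 ± 0.80 in Vehicle and 7.20 ± 1.01 in BLZ945 (SD, n = 8 each), which differ by -1.49 (SE 0.40), or 2.82-fold.

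Ifitm3, the family gene best known for restricting influenza virus, ran from 9.68 to 12.23 with a median of 10.70 in the Vehicle mice and from 8.98 to 10.89 with a median of 9.68 in the BLZ945 mice. Here 4 of 8 BLZ945 mice lay below every Vehicle mouse, so fewer mice were separated than for Ifitm1 or Ifitm2. The mean was 10.83 ± 0.81 in Vehicle and 9.79 ± 0.64 in BLZ945 (SD, n = 8 each), which differ by -1.04 (SE 0.33), or 2.06-fold.

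The same mice stood where the groups met. Vehicle mouse 7 was the lowest Vehicle mouse for all 3 genes, and BLZ945 mouse 1 was the highest BLZ945 mouse for all 3. At the outer ends the mice were shared in part. Vehicle mouse 2 was the highest Vehicle mouse for Ifitm2 and Ifitm3, and Vehicle mouse 3 for Ifitm1. BLZ945 mouse 7 was the lowest BLZ945 mouse for Ifitm1 and Ifitm2, and BLZ945 mouse 3 for Ifitm3. In the fit over all genes, 662 of 12394 genes (5.34%) were called lower and 322 (2.6%) higher at a limma adjusted p under 0.05, and 2 of the 3 members, Ifitm1 and Ifitm2, were among the lower ones. At an unadjusted p under 0.05 the share was 22.6%. This count follows from the choice of the family and is given only beside its background. The groups did not overlap for 1.36% of all genes, 1.04% being lower in BLZ945, and for 0 of the 3 members. In sorted bulk samples, fewer cells that carry a transcript and less of it per cell cannot be told apart.

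**Figure D1:**
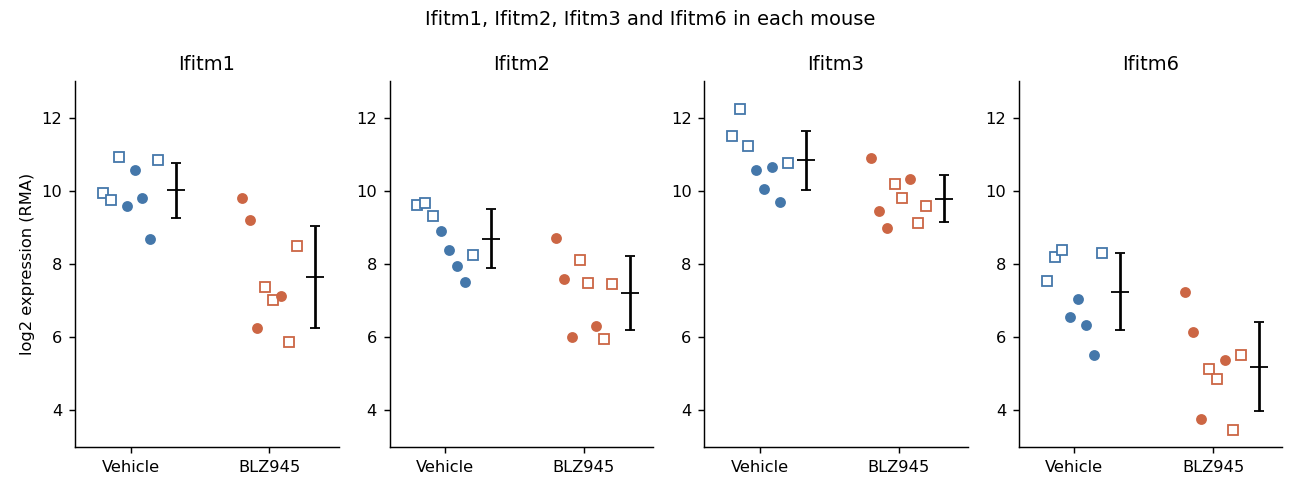
Log2 expression of Ifitm1, Ifitm2, Ifitm3 and Ifitm6 in each of 16 mice (filled circles, mice of 11.29 weeks; open squares, other ages; bars, mean ± SD, n = 8 per group). The BLZ945 means are lower in each panel (differences -2.37, -1.49, -1.04 and -2.05), the groups overlap in all 4, and among the filled circles the groups lie closer together, most of all for Ifitm3.

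Among the 4 Vehicle and 4 BLZ945 mice of 11.29 weeks, the differences were smaller than over all mice. Ifitm1 was 9.66 ± 0.78 in Vehicle and 8.10 ± 1.68 in BLZ945 (SD, n = 4 each), which differ by -1.56. For Ifitm2 the difference was -1.03, from 8.18 ± 0.61 to 7.15 ± 1.24. Ifitm3 differed by -0.33, from 10.24 ± 0.46 to 9.91 ± 0.86, which is less than the SD within either group. With the age cohort as a covariate over all 16 mice, the values were again -1.56, -1.03 and -0.33, since only this age holds both agents. The Vehicle mice of 11.43 or 12.29 weeks were higher in Ifitm3, at 10.75 to 12.23, than those of 11.29 weeks, at 9.68 to 10.65. For Ifitm2 these ranges were 8.23 to 9.67 and 7.50 to 8.91, which overlap. For Ifitm1 they were 9.75 to 10.92 and 8.68 to 10.58, which overlap too. This contrast within Vehicle was not tested.

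The volume label could be fitted in 14 mice. With log2 initial volume as a covariate, the difference was -1.67 for Ifitm1 (SE 1.31). It turned to 0.37 for Ifitm2 (SE 0.88) and 0.95 for Ifitm3 (SE 0.51). The volumes of the groups do not overlap, so that this fit extrapolates, and agent and labelled volume cannot be told apart. In the female mice alone the differences were -2.59, -1.22 and -1.15, and in the male mice alone -2.25, -2.0 and -1.01, for Ifitm1, Ifitm2 and Ifitm3 in that order. The spread of log2 values on an array (its SD) correlated with Ifitm2 at -0.80 in the Vehicle and -0.61 in the BLZ945 mice and with Ifitm3 at -0.84 and -0.38, but with Ifitm1 at -0.35 and -0.05. With array SD as a covariate the differences were -2.49, -1.97 and -1.38, all larger than without it.

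**Figure D2:**
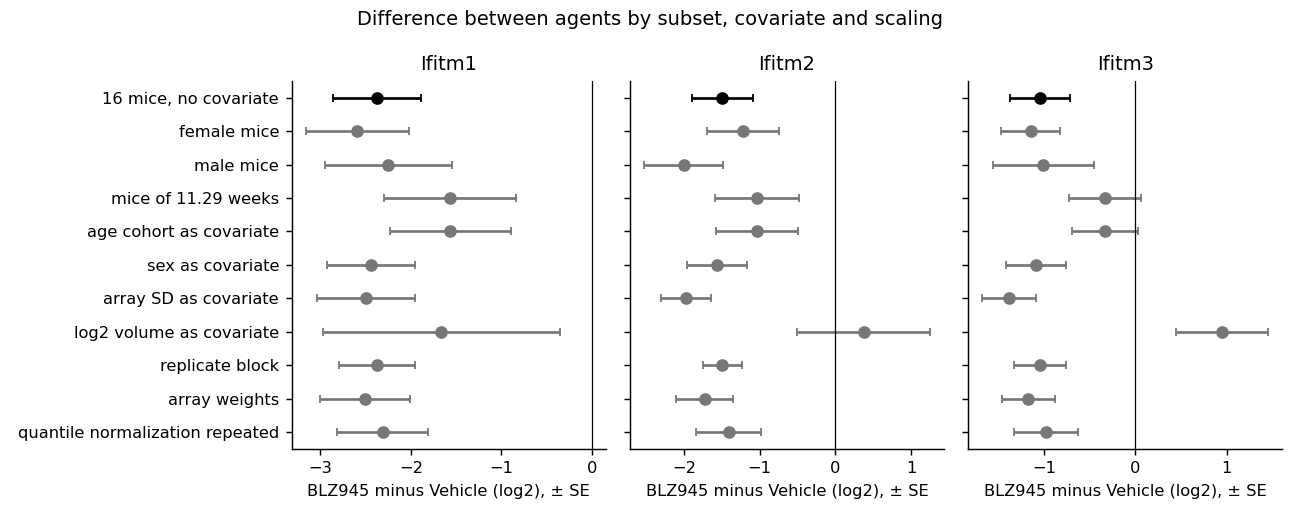
Difference in log2 expression, BLZ945 minus Vehicle, of Ifitm1, Ifitm2 and Ifitm3 in all 16 mice (black) and in subsets of mice or with a covariate, block or other scaling (grey); bars are ± SE, and the x axes differ between panels. Ifitm1 stays below 0 in every setting plotted, from -2.59 to -1.56, whereas Ifitm2 and Ifitm3 cross to 0.37 and 0.95 with log2 volume as covariate.

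Whether sex moved the 3 genes, and age or volume within the BLZ945 group, can be tested, since these comparisons were not used to choose them. Age was not tested in the Vehicle mice. Male mice had a lower Ifitm1 than female mice by 0.56 with the agent in the model (95% interval -1.59 to 0.47), and limma's adjusted p was 0.656. The male minus female difference was -0.53 for Ifitm2 (-1.37 to 0.31, adjusted p = 0.611) and -0.33 for Ifitm3 (-1.03 to 0.36, adjusted p = 0.686). None of the 3 was called for sex, where 4 of 12394 genes (0.0323%) were, 3 of them higher in males (0.0242%). The interaction of agent and sex was 0.34 for Ifitm1 (-1.79 to 2.47), -0.78 for Ifitm2 (-2.47 to 0.91) and 0.14 for Ifitm3 (-1.29 to 1.57), with adjusted p from limma of 0.988, 0.983 and 0.995. These intervals of the interaction reach beyond the size of the differences between the agents. In that fit limma called 0 genes, with 414 (3.34%) at an unadjusted p under 0.05.

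Within the BLZ945 group, the 4 mice of 13.14 weeks were compared with the 4 of 11.29 weeks. Ifitm1 was 7.18 ± 1.08 in the older and 8.10 ± 1.68 in the younger mice, a difference of -0.92 (95% interval -2.57 to 0.73, limma adjusted p = 0.503). The older minus younger difference was 0.10 for Ifitm2 (-1.19 to 1.39, adjusted p = 0.937) and -0.23 for Ifitm3 (-1.07 to 0.60, adjusted p = 0.748). None was called, against 5 genes of 12394 (0.0403%), with 18.7% of genes at an unadjusted p under 0.05. Per doubling of the labelled volume within the BLZ945 group, Ifitm1 changed by -0.31 (-2.0 to 1.37, adjusted p = 0.921) and Ifitm2 by -0.75 (-1.89 to 0.38, adjusted p = 0.749). For Ifitm3 the slope was -0.83 (-1.43 to -0.23), with an unadjusted p of 0.0114 in limma and an adjusted p of 0.711, so that it did not pass over all genes. Limma called 0 genes for the volume slope, with 846 (6.83%) at an unadjusted p under 0.05.

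The 3 genes stand next to each other on chromosome 7 in the order Ifitm2, Ifitm1, Ifitm3, and the next gene is Ifitm6, another family gene. Ifitm6 is not one of the members, and it fell. It was the gene most like Ifitm1 over these mice (r of 0.879 with the agent means removed), so its difference is not independent of that of Ifitm1. Ifitm6 ran from 5.52 to 8.37 with a median of 7.29 in the Vehicle mice and from 3.47 to 7.24 with a median of 5.25 in the BLZ945 mice. The groups overlapped, and 6 of 8 BLZ945 mice were below every Vehicle mouse. The difference was -2.05 (SE 0.50, limma adjusted p = 0.0147). It was -0.73 in the mice of 11.29 weeks (adjusted p = 0.591), -1.84 in the male mice (adjusted p = 0.427) and 0.05 with log2 volume as covariate (adjusted p = 0.978), and the call was lost in each. With the age cohort as a covariate it was again -0.73 (adjusted p = 0.562). Over the 12 alternatives in all the adjusted p ran from 0.00536 to 0.978, and leaving out 1 mouse at a time gave 0.00365 to 0.0353. Neither check was planned for Ifitm6.

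The 9 other measured neighbours did not pass the test. On one side these were Pgghg, Nlrp6, Cox8b, Psmd13 and Sirt3, and on the other Pkp3, Sigirr, Ptdss2 and Rnh1. Their differences ran from -0.25 (Psmd13, adjusted p = 0.390), a proteasome subunit, to 0.41 (Pkp3, adjusted p = 0.113), a desmosome protein. Ifitm10, which lies elsewhere on chromosome 7, had means of 5.53 and 5.28, which differ by -0.25 (adjusted p = 0.462). Ifitm5, a gene of bone-forming cells, and Ifitm7 had no probe set that could be named.

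**Figure D3:**
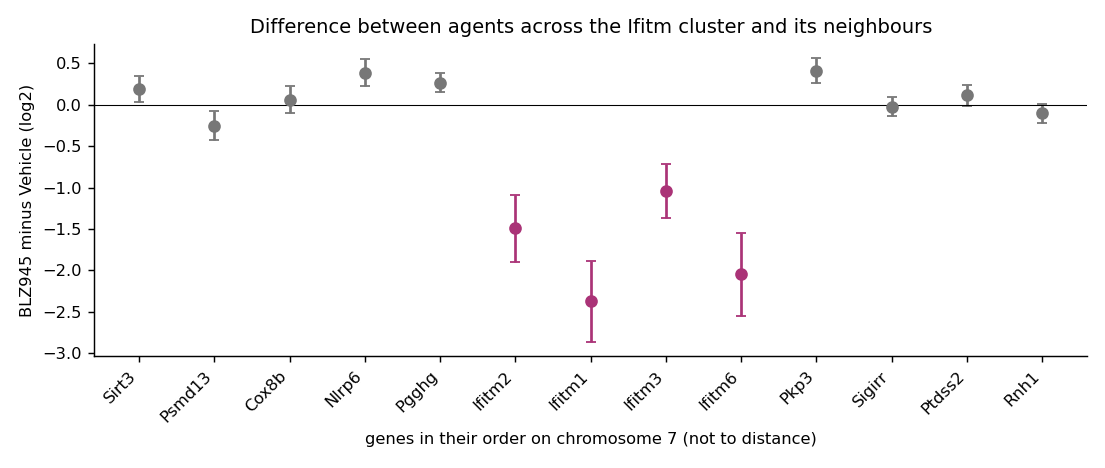
Difference in log2 expression, BLZ945 minus Vehicle, of Ifitm2, Ifitm1, Ifitm3 and Ifitm6 (purple) and of the nearest measured genes on each side (grey), in RefSeq order and not to distance; bars are ± SE, n = 8 mice per group. The 4 Ifitm genes lie between -2.37 and -1.04, and the 9 other neighbours between -0.25 and 0.41.

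Within the groups the 3 genes varied together to different degrees. Ifitm2 and Ifitm3 correlated across the 8 Vehicle mice with Pearson's r of 0.865 (exact permutation p = 0.00543, 0.0326 adjusted over 6 relations) and Spearman's rho of 0.810 (adjusted exact p = 0.0653). Without the 2 mice farthest from the median, Vehicle 2 and 7, r was 0.724 and its adjusted exact p was 0.396, so the relation rests in part on those mice. In the BLZ945 mice r was 0.691 (rho 0.667, adjusted exact p = 0.119 and 0.166), and 0.357 without BLZ945 3 and 7. Both genes also followed array SD, as given above. Over the 16 mice with the agent means removed, their r was 0.758, and with array SD removed as well it was 0.591.

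Ifitm1 and Ifitm2 correlated in the BLZ945 mice with r of 0.802 and rho of 0.833 (adjusted exact p = 0.0592 and 0.0653), and 0.694 without BLZ945 1 and 2. In the Vehicle mice r was 0.319 (rho 0.214, adjusted exact p = 0.525 and 0.619), and it turned to -0.46 without Vehicle 3 and 7. Ifitm1 and Ifitm3 gave r of 0.566 (rho 0.571) in BLZ945 and 0.264 (rho 0.357) in Vehicle, with adjusted exact p of 0.217 (0.227) and 0.529 (0.467), and 0.509 and -0.42 without the same pairs of mice. The difference between the groups in these correlations was not tested.

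Likeness to other genes was ranked by Pearson's r over the 16 mice after the mean of each agent was subtracted, and is a description. Of 12393 other genes, Ifitm6 was the most like Ifitm1, with r of 0.879 (0.783 within Vehicle and 0.956 within BLZ945). Next came Neo1 (0.807), a receptor for netrins and repulsive guidance molecules, Ddit4l (0.803), Gcsam (0.785) and Kcne3 (0.777), a potassium channel subunit, all 4 with means below the median level of all genes. Ifitm2 was the 29th and Ifitm3 the 406th gene of this ranking. For Ifitm1, 1.26% of all genes had r over 0.5.

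Ifitm2 and Ifitm3 were led by other genes. Nearest to Ifitm2 were Plekha6 (0.901), Arpp21 (0.900), Cyb5r3 (0.885), Rpl3l (0.882) and the ribosomal protein gene Rpl22 (0.881). Nearest to Ifitm3 were Ms4a4b (0.846) and Gimap3 (0.824), which are known from T cells, with Prss16 (0.833), a serine protease of the thymus, D13Ertd608e (0.826) and Slc23a3 (0.819). Of the 10 genes, 8 had means below 6.27, the median level of all genes, and the exceptions were Cyb5r3 and Rpl22. For these members r was over 0.5 with 21.6% and 16.3% of all genes, so a high r was common. Ifitm6 was the 145th for Ifitm2 (0.765) and the 98th for Ifitm3 (0.738).

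With array SD removed as well, an alternative added after the data were seen, Ifitm6 was again the nearest to Ifitm1 (0.908), and Ifitm2 rose to the 9th place (0.765). The lists of the other members altered. Ifitm2 was led by Osr1 (0.867), Mcpt8 (0.846), a protease of basophils, and Snrpg (0.846). Ifitm3 was led by Gzma (0.881), Gzmb (0.871) and Ctsw (0.865), which are genes of cytotoxic lymphocytes. The mean of 9 T and NK cell markers ran from 4.13 to 5.27 in Vehicle and from 4.58 to 6.28 in BLZ945. Of the 9, 0 were called, beside 7.94% of all genes. At an unadjusted p under 0.05 in limma 6 were higher, beside 22.6% of all genes in either direction. The part of such cells in the Ifitm3 values was not tested.

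**Figure D4:**
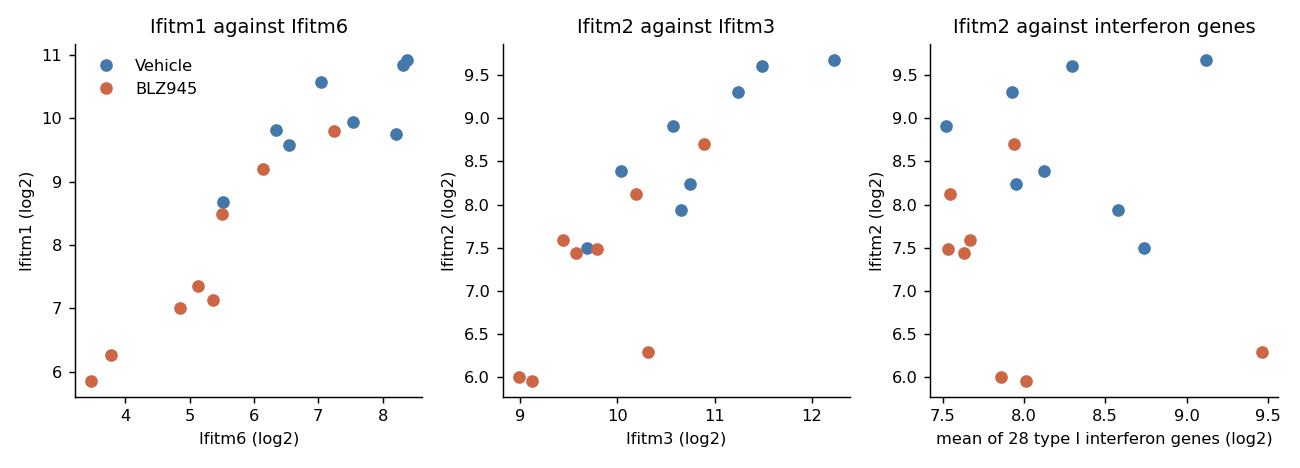
Log2 expression per mouse of Ifitm1 against Ifitm6, of Ifitm2 against Ifitm3, and of Ifitm2 against the mean of 28 type I interferon-induced genes (blue, 8 Vehicle mice; red, 8 BLZ945 mice). Ifitm1 rises with Ifitm6 in both groups (r of 0.783 and 0.956), and Ifitm2 with Ifitm3 (0.865 and 0.691). The r of Ifitm2 with the interferon-induced mean is -0.04 in Vehicle and -0.45 in BLZ945. Without the 2 mice of each group farthest from the median of that mean it is -0.59 and -0.05.

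Type I interferon acts on many genes besides the Ifitm family, and 28 of 34 listed ones were measured. None passed limma's test between the agents, beside 7.94% of all genes called in either direction. At an unadjusted p under 0.05, 7 were lower and 1 was higher, beside 22.6% of all genes. The median difference of the 28 was -0.33 against 0.07 over all genes, with 22 negative and 6 positive. That median was 0.06 in the mice of 11.29 weeks, 0.00 in the male mice, -0.55 in the female mice and -0.52 without BLZ945 mouse 6. In the female mice 4 of the 28 were called, all lower, beside 272 of 12394 genes called lower. Without BLZ945 mouse 6, 6 of the 28 were called, all lower, beside 751 of 12394 genes. With array weights 1 was called lower, beside 795 of 12394 genes. With dim genes left out 1 was called lower and 1 higher, beside 550 and 300 of 6197 genes.

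The smallest p belonged to Lgals3bp, a secreted glycoprotein, at 10.6 ± 0.44 in Vehicle and 11.3 ± 0.52 in BLZ945 (difference 0.70, adjusted p = 0.0590), and to Ifi27l2a, at 10.9 ± 0.46 and 10.2 ± 0.59 (-0.75, adjusted p = 0.0611). Ifit3, which inhibits translation of viral RNA with its partners, differed by -0.72 (adjusted p = 0.0943), and Irf7, the factor that amplifies the type I response, by -0.45 (adjusted p = 0.531). Isg15 had no probe set of its own. Of the other restriction factors, which act against viruses at other steps, 0 of 10 measured were called, beside 7.94% of all genes. This list is not separate, since Bst2, Samhd1, Mx1 and Mx2 are also among the 28 type I genes. At an unadjusted p under 0.05 in limma 1 was lower, beside 22.6% of all genes in either direction. Bst2, or tetherin, was at 8.77 ± 0.51 and 8.11 ± 0.78 (-0.66, adjusted p = 0.185), and Mx2 differed by 0.18 (adjusted p = 0.482).

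Of the 14 measured genes induced by interferon gamma, 0 were called by limma, beside 7.94% of all genes, and the median difference was -0.01. At an unadjusted p under 0.05, 2 were lower and 0 higher, beside 22.6% of all genes in either direction. Gbp3, a guanylate-binding protein, differed by -1.34 (adjusted p = 0.123) and the chemokine Cxcl10 by -0.97 (adjusted p = 0.161). Among 10 ligands and receptors, Ifngr2, which encodes the signalling chain of the receptor for interferon gamma, rose from 8.42 ± 0.39 to 9.17 ± 0.39 (0.75, adjusted p = 0.0165). The other chain, Ifngr1 (0.09, adjusted p = 0.716), and the type I receptor chain Ifnar1 (0.06, adjusted p = 0.800) did not pass. Nor did the other type I receptor chain, Ifnar2 (0.36, adjusted p = 0.0653). At an unadjusted p under 0.05 in limma, 3 of the 10 were higher and 1 lower, beside 22.6% of all genes in either direction. The signalling and sensing list shares Stat2, Irf9, Usp18, Irf7 and Ifih1 with the type I list and Socs1 with the interferon gamma list. In it, 3 of 22 measured genes rose and 0 fell. These were Ikbke, a kinase upstream of interferon transcription, from 6.73 ± 0.61 to 7.98 ± 0.57 (1.25, adjusted p = 0.00619), Irf8, a myeloid transcription factor (0.49, adjusted p = 0.0144), and Irf3, which turns on interferon genes (0.43, adjusted p = 0.0323).

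Of the partners and modifiers of Ifitm proteins, 1 of 14 measured passed. Vcp, an ATPase that extracts proteins from membranes, fell by 0.36 (adjusted p = 0.0490). The share of called genes was 10% in the ligand and receptor list, 13.6% in the signalling list and 7.14% in the partner list, beside 7.94% of all genes.

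**Figure D5:**
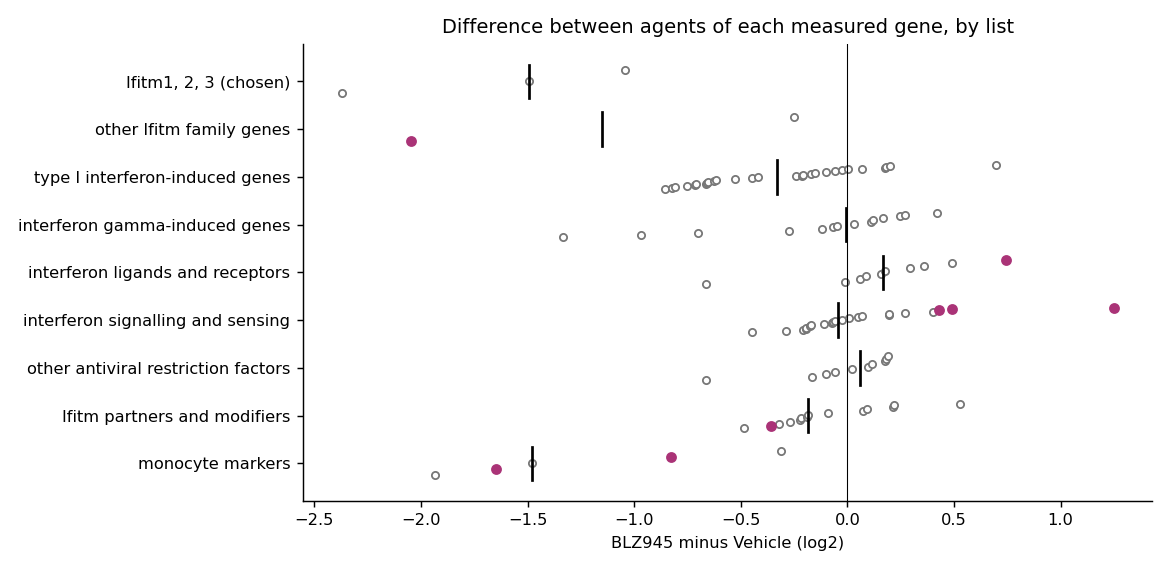
Difference in log2 expression, BLZ945 minus Vehicle, of each measured gene in 9 lists (filled, adjusted p under 0.05 in limma; open, not called, or in the top row chosen and not tested; vertical bars, list medians). The medians were -0.33 for the 28 type I genes and -0.01 for the 14 interferon gamma genes, and the monocyte markers lie at -1.48.

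The level of the 28 type I genes in a mouse, taken as their mean, had no relation with a member that passed the test over all 8 mice of a group. Pearson's r with Ifitm1 was -0.47 in Vehicle and -0.18 in BLZ945. The mean gave r of -0.04 and -0.45 with Ifitm2 and of 0.28 and 0.28 with Ifitm3. Spearman's rho was -0.45 and -0.14 for Ifitm1, -0.05 and -0.43 for Ifitm2, and 0.14 and 0.05 for Ifitm3. The smallest of the 6 exact permutation p for r was 0.777 after adjustment over the 6 relations, and 0.898 for rho. Without the 2 mice farthest from the median of the list mean, Vehicle 2 and 4, r with Ifitm1 was -0.96 (adjusted exact p = 0.00833), so the value depends on those mice. The r with Ifitm2 was -0.59 without the same mice, and -0.05 in the BLZ945 group without BLZ945 6 and 7. By single genes, r after removal of the agent means was over 0.5 for 0 of 28 type I genes with Ifitm1, 0 with Ifitm2 and 6 with Ifitm3, beside 1.26%, 21.6% and 16.3% of all genes. The highest with Ifitm3 was Oas3, at 0.685.

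Markers of other cells moved with the agents too. Of 5 measured monocyte markers 2 fell, beside 5.34% of all genes: Ccr2, the chemokine receptor of inflammatory monocytes (-1.65, adjusted p = 0.0484), and Hp, or haptoglobin (-0.83, adjusted p = 0.0201). Plac8 differed by -1.48 (adjusted p = 0.0676), and the other monocyte markers, Chil3 and Vcan, were also lower in mean. The mean log2 value of the 5 ran from 6.70 to 8.72 in the Vehicle and from 4.87 to 7.25 in the BLZ945 mice. In the mice of 11.29 weeks it was 6.70 to 8.08 in Vehicle and 6.61 to 7.25 in BLZ945. Itgam, which encodes the CD11b used in the sort, fell by 1.17 (adjusted p = 0.00807).

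Of the 9 measured markers of glioma cells and oligodendrocyte precursors, 6 fell, again beside 5.34% of all genes, and the mean of the 9 ran from 6.10 to 7.81 in Vehicle and from 4.86 to 6.47 in BLZ945. Of 7 astrocyte markers, 2 fell, beside the same 5.34% of all genes. The neutrophil markers had 0 of 9 called, with 0 at an unadjusted p under 0.05, beside 7.94% and 22.6% of all genes. Among them S100a8 differed by -0.54 (adjusted p = 0.594). The part of monocytes, tumour cells and astrocytes in the Ifitm values was not tested. With the agent means removed, the 5 monocyte markers had a median r of 0.25 with Ifitm1, 0.13 with Ifitm2 and 0.27 with Ifitm3, beside medians over all genes of 0.01, 0.13 and 0.08. Plac8 was the highest of the 5 for each member, at 0.544, 0.530 and 0.737. Markers of some other cells were more like a member by this measure. The 5 dendritic cell markers had a median r of 0.50 with Ifitm1, led by Flt3 at 0.732, and the 7 astrocyte markers one of 0.37. The 9 T and NK cell markers had a median r of 0.52 with Ifitm3. Of the dendritic cell markers 0 of 5 were called between the agents, with 2 higher at an unadjusted p under 0.05 in limma. The shares over all genes in either direction were 7.94% and 22.6%.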

How the data were processed

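Tumour-associated macrophages of 16 mice were measured on 1 array each. The deposited values are log2 expression per probe set; GCOS 1.4 and RMA are named in the submitters' processing notes, and the role of each is not given in the sources used here. The RMA method corrects background, normalizes across arrays and summarises probes, and compresses differences of dim probe sets. Scanner intensities were not analysed here, so no probe set was called above background, and precision is limited by how many arrays there are. The highest correlation between 2 arrays was 0.991, so none was counted as a repeat.

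Of 22690 probe sets, 20393 carried 1 symbol, 691 several and 1606 none in the platform annotation. Symbols were looked up in RefSeq (20364 found, 0 altered). Each of 12394 genes was represented by its probe set of highest mean. Groups came from the agent label. Fits by lmFit and eBayes used limma 3.58.1 (R 4.3.3) without covariate for agent, with agent for sex, plus an interaction, and within BLZ945 for age and log2 volume. A gene was called at a Benjamini-Hochberg adjusted p under 0.05 over all genes. Single-gene adjusted p-values are limma's. Correlations were tested by exact two-sided permutation. On simulated data for 12394 genes, the agent fit recovered 90% of genes changed by 1 log2 unit and 99% of those changed by 2. The sex fit recovered 95% and 100%, the interaction fit 20% and 88%, and the age fit 59% and 100%. For the volume fit the rates were 65% and 99%, for slopes of 1 and 2 log2 units per doubling of the volume. The changed genes were drawn at random, each with the spread that eBayes gave it in the agent fit, so these rates are not those of the members. The SE of Ifitm1 was 1.01 in the interaction fit, 0.75 in the age fit and 0.76 in the volume fit.

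The members, gene lists and tests were chosen with earlier results of these data known. Genes named are the members, the 5 most like each member, up to 4 called genes per list or else the 2 of smallest p, the 5 nearest measured genes on each side, and 13 listed genes, not all of which are reported here. Other genes, among them the marker genes, Oas3, Plac8, Ifnar2 and those found with array SD removed, were named after their values were seen.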

Additional observations from a re-analysis of the deposited data

Results flagged for a closer look

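The mean of the 28 type I interferon-induced genes was far higher in BLZ945 mouse 6 than in the other BLZ945 mice, at 9.46 against 7.53 to 8.01. In that mouse Ifitm1 was 7.13, Ifitm2 was 6.30 and Ifitm3 was 10.31, so Ifitm1 and Ifitm2 lay below the median of their group and Ifitm3 above it. The mean of the interferon gamma-induced genes was also highest there, at 9.78, as was that of the T and NK cell markers, at 6.28. Chance marks about 1 in 20 groups in this way.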

How the results depend on the processing

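The agent difference kept its direction in all 13 other settings for Ifitm1 (-2.59 to -1.56), and in 12 of 13 for Ifitm2 and Ifitm3. Several of these settings could not alter it for the members. They are the mean of all probe sets, dim genes left out, the trend and robust options of eBayes, and the replicate block. The age cohort covariate repeats the mice of 11.29 weeks. With log2 volume as covariate the agent difference was 0.37 for Ifitm2, 0.95 for Ifitm3 and 0.052 for Ifitm6. Leaving out 1 mouse at a time gave -2.68 to -2.12 for Ifitm1, -1.71 to -1.32 for Ifitm2 and -1.21 to -0.84 for Ifitm3. Genes called between agents numbered 984 (322 higher, 662 lower), 215 with age cohort as covariate, 1644 with array SD as covariate (866 higher, 778 lower), 393 in female mice, 2 in male mice, 89 in mice of 11.29 weeks, 15 with log2 volume as covariate, and 710 to 1188 without 1 mouse. Subsets hold fewer mice; otherwise the cause was not tested. Type I genes called numbered 1 with array weights, 2 with dim genes left out, 4 in female mice, and 0 to 6 without 1 mouse (6 without BLZ945 mouse 6). Over all genes 1257 were called with array weights, 850 of 6197 with dim genes left out and 1188 without BLZ945 mouse 6. For sex, 1 gene was called with dim genes left out and 3 to 14 without 1 mouse (14 without Vehicle mouse 4). For age, 1 was called with dim genes left out, 1 with the mean of all probe sets, and 0 to 16 without 1 mouse. Estimates that changed sign without 1 mouse were the Ifitm1 interaction (-0.56 to 1.11), the Ifitm3 interaction (-0.20 to 0.67), the Ifitm1 volume slope (-1.09 to 0.91), and the age difference of Ifitm2 (-0.28 to 0.62) and Ifitm3 (-0.54 to 0.093); none of these passed the test. Without the 2 farthest mice, r in Vehicle was -0.46 for Ifitm1 and Ifitm2, -0.42 for Ifitm1 and Ifitm3, and 0.72 for Ifitm2 and Ifitm3. With the type I mean, r in Vehicle was then -0.96 for Ifitm1, -0.59 for Ifitm2 and -0.50 for Ifitm3. In BLZ945 it was 0.31 for Ifitm1, -0.05 for Ifitm2 and 0.18 for Ifitm3 with that mean. With quantile normalization repeated, r of the type I mean with Ifitm2 in Vehicle was 0.10.

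Replicate numbers are shared by different mice of the groups. The deviations of same-numbered mice correlated at over 0.1 in 5 of 8 pairs, at most 0.39. In the other pairs the correlation was -0.38, -0.08 and -0.48. Of 8 Vehicle mice, 1 correlated best with its own number. What else the numbers may stand for is not labelled and was not tested. With replicate number as a block, 873 genes and 3 type I genes were called, and the differences of the members were again -2.37, -1.49 and -1.04. Each number occurs once per group, so the block cannot move these differences. Their SEs were 0.42, 0.26 and 0.28, against 0.49, 0.40 and 0.33 without the block.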
